A study of Mus musculus with 6 samples.

Results

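Microglia and other macrophages of the mouse retina were followed through 37 genes that mark them, of which 31 occurred among the 15450 named genes of the deposited table. Members were taken by gene symbol, and the values of the 35 transcript rows that carry these symbols were summed per gene. Csf1r, Aif1, Olfml3, Fcgr3, Runx1 and Tlr7 were not analysed here. The libraries were made by RNA-seq of polyadenylated RNA from live Thy1-positive cells, sorted from retinas that papain had dissociated, and the labels call the cells retinal ganglion cells. Eyes of mice aged 3 to 4 weeks were injected with adeno-associated virus (AAV) that carried either PLAP (AAV-Control) or the transcription factor Sox11 (AAV-Sox11), and the virus was present for 2 weeks. Both groups had an optic nerve crush 3 days before the tissue was taken, so neither group is uninjured or free of virus. Each group had 3 libraries, A, B and C, and each library pooled 3 retinas from 3 animals. For the viral promoter and serotype and for the mouse strain, the sources used here give nothing.

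Microglia are the resident macrophages of the retina. They depend on the growth factor receptor Csf1r and on the transcription factor PU.1, which Spi1 encodes, survey neurons with receptors for nucleotides and for the neuronal chemokine fractalkine, and respond to nerve injury by taking up debris and making complement. Other macrophages lie along the vessels, and blood monocytes can enter after injury. A sort for Thy1, a surface protein that ganglion cells share with T cells, is not aimed at any of these cells. In bulk libraries such as these, fewer cells of a type cannot be told apart from less RNA of a gene per cell.

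Sox11 itself had normalized values of 131, 111 and 100 in controls A, B and C and 179, 234 and 284 with AAV-Sox11, higher in each AAV-Sox11 library than in any control (log2 fold change 1.003 ± 0.197, SE, adjusted p = 0.0504). The whole-number values of a library added up to 10747985 at the lowest and 11546892 at the highest. These are adjusted values, from which a component across libraries is missing, so they stand for depth only approximately. Of 13 ganglion cell genes 12 were measured, with summed normalized values of 7464 to 11040 in the controls and 9415 to 12310 with AAV-Sox11. The 10 rod genes summed to 39700 to 63530 and to 25060 to 45600. Rod transcripts were thus present in every library beside those of ganglion cells. Of the 9 perivascular macrophage genes 4 were measured, of 8 monocyte genes 1 (Itga4), of 10 neutrophil genes 1 (Retnlg), of 13 T cell genes 5 (2 of them, Zap70 and Grap2, higher with AAV-Sox11) and of 7 natural killer cell genes 0. The table holds no row below 1.06 CPM (reads scaled to library size) in its highest library, so a gene that it lacks may still have been present at a low level.

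The 31 members together held 0.177%, 0.11% and 0.271% of the value of all named genes in control libraries A, B and C, and 0.15%, 0.117% and 0.153% in AAV-Sox11 libraries A, B and C. Control C had the highest share and control B the lowest, and the AAV-Sox11 libraries lay between them. Divided by the length of the annotated transcript, the members' mean levels ran from 16.1 (Msr1) to 2462 (Lyz2) normalized values per kilobase, with a median of 128, against 104 over all genes with a length. Lyz2, C1qb, Ly86 and C1qc, at 2462, 1889, 1671 and 1356 per kilobase, each stood above at least 97.9% of genes on that scale.

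No member passed the test between the groups. In limma's moderated test, adjusted by Benjamini-Hochberg over all 15450 genes, 0 members passed upward and 0 downward at a threshold of 0.05, where 0.796% of all genes were higher and 1.52% lower. The adjusted p of the members ran from 0.122 (Tmem119) to 0.963 (Cybb). At an unadjusted p under 0.05, 5 members were lower and 0 higher, where 11.8% and 12.6% of all genes were. The log2 fold change, AAV-Sox11 minus AAV-Control on the scale of log2(value + 1), was negative in 26 members and positive in 5. Its median was -0.33, against 0.03 over all genes. In 4 members, Tmem119, P2ry12, Spi1 and Msr1, all AAV-Sox11 libraries lay below all controls. That is 12.9% of the members, close to the 14.4% of all genes with groups apart in that direction, so it is not a result about these genes. No member had all AAV-Sox11 libraries above the controls, where 16.2% of all genes did.

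Libraries with the same letter were prepared on the same day, as the series description states, so the letters pair them. Over all genes, their deviations from the group means correlated at 0.0025 (A), 0.793 (B) and 0.236 (C). Within these pairs, 13 members were lower with AAV-Sox11 in all 3 pairs (41.9%, against 24.3% of all genes) and 1, Cd68, was higher in all 3 (28.4% of all genes were). In pair A 23 of 31 members were lower with AAV-Sox11, in pair B 16 and in pair C 27, against 49.5%, 45.6% and 47.2% of all genes. Median log2 differences over the members were -0.40 in pair A, -0.13 in pair B and -0.74 in pair C. With the replicate as a block in limma, Tmem119 and Siglech were lower (adjusted p = 0.0288 and 0.0361), where 2.68% of all genes were lower and 2.09% higher. In that fit 13 members had an unadjusted p under 0.05 and a negative difference, and 1 a positive one, where 13.6% and 14.5% of all genes did. The SE of Tmem119 was 0.11 with the block and 0.26 without it. Part of the spread within groups is missing from the deposited values, so p-values with the block, here and below, can be too small. The members' 35 transcript rows in the authors' deposited table included 3 with a false discovery rate under 0.05, all lower, those of Msr1 (log2 fold change -1.98, 0.00312), Tmem119 (-0.86, 0.0161) and Fcrls (-1.27, 0.0314). Of all its rows 4.91% were lower and 1.93% higher at this rate.

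**Figure D1:**
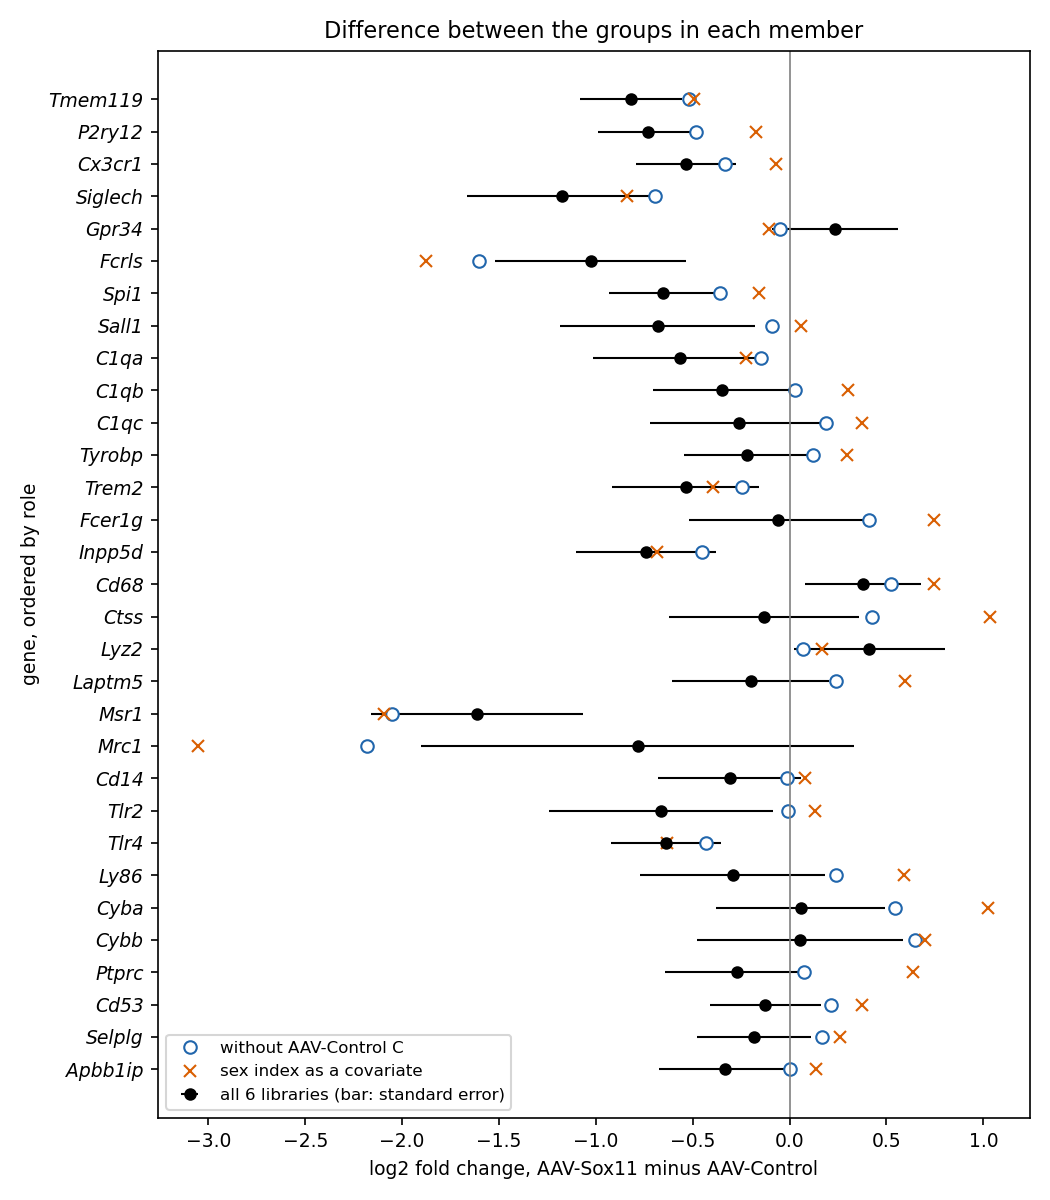
Log2 fold change of each of the 31 members, AAV-Sox11 minus AAV-Control, ordered by role: black points with bars are the limma estimate and its standard error over 6 libraries, open circles the estimate without control C, and crosses the estimate with the sex index as a covariate. Of the estimates 26 are negative over 6 libraries, 16 once control C is left out, and 13 once the sex index is a covariate.

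In fits without the pairing, the negative median depended on control C. Without that library the median log2 fold change over the members was -0.01, and 16 of 31 estimates were negative. Without control B it was -0.75, and without AAV-Sox11 B -0.19. Pair A had a negative median of its own, -0.40. In pair B the median was -0.13, with 16 of 31 members lower, where 45.6% of all genes were. The other libraries, left out 1 at a time, gave -0.35 (control A), -0.38 (AAV-Sox11 A) and -0.46 (AAV-Sox11 C). Control C also stood apart in a measure of the sex make-up of the pools. The index, the mean log2 value of the Y-linked genes Ddx3y, Eif2s3y, Kdm5d and Uty minus that of Xist, was -6.82, -6.79 and -5.26 in controls A, B and C and -6.87, -8.11 and -8.45 with AAV-Sox11. By this index control C stood highest, controls A and B were nearly equal, and AAV-Sox11 C was lowest. Every AAV-Sox11 library lay below every control, so the index and the group are partly confounded. With the index as a covariate the median was 0.13, 13 of 31 estimates were negative, and 0% of all genes passed in either direction. Its part in the members' values was not tested.

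**Figure D2:**
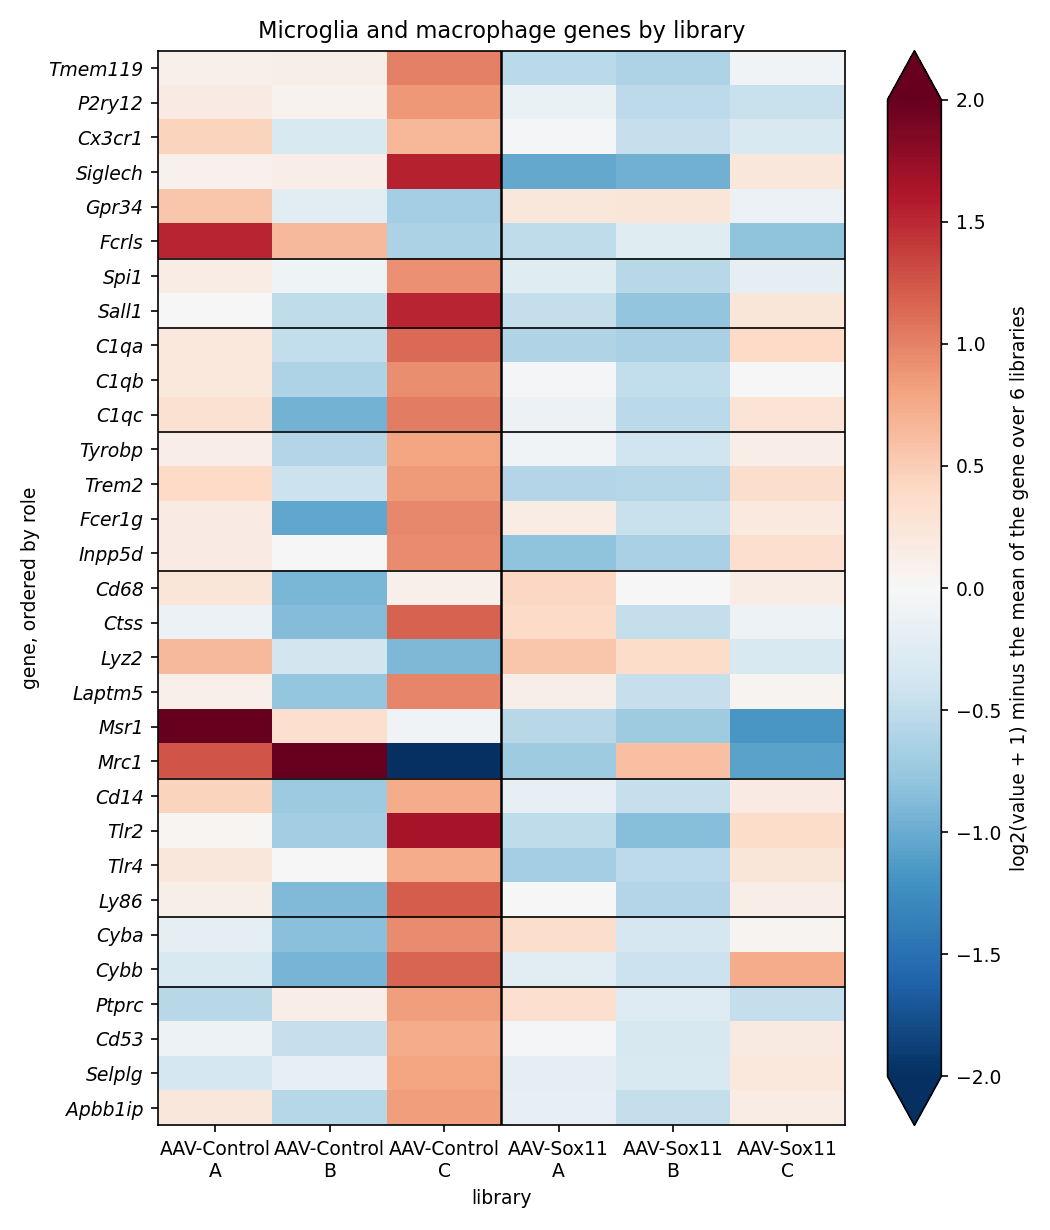
Each cell is the log2(value + 1) of a member in 1 library minus the mean of that gene over the 6 libraries, with genes in rows by role and libraries in columns; red is above and blue below the mean, and 3 cells of Msr1 and Mrc1 lie beyond the colour scale, which ends at 2 and -2. Control C is the highest library for 25 of 31 members, while Fcrls, Gpr34, Lyz2, Msr1 and Mrc1 are lower in it than in controls A and B.

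The members' values ranked the control libraries alike more often than not, with C above A above B in 21 of 31, and 13 of these had the same ranking of the AAV-Sox11 libraries. Control C was the highest of the 6 libraries for 25 of 31 members (80.7%), where 21.2% of all genes were highest in it. Control B was the lowest control for 22 members, where 30.9% of all genes were lowest in it. Among the AAV-Sox11 libraries, C was the highest for 19 members and B the lowest for 21, where 6368 and 3149 of all 15450 genes were. Control C exceeded the mean of controls A and B by a median of 1.01 on the log2 scale over the members and by at least 2-fold in 17 of 31, against a median of -0.01 and 4.28% of all genes. A list of 42 other microglia and myeloid genes had a median of 1.02 in the same comparison, with all 42 above the mean of A and B, so the pattern was not confined to the members. No gene of the Muller glia, rod or endothelial lists was above that mean, and 1 of 12 ganglion cell genes was (medians -0.60, -0.55, -1.29 and -0.42). Of the amacrine genes 2 of 8 and of the bipolar genes 1 of 7 were above it (medians -0.45 and -0.14). Among the T cell genes 3 of 5 were (median 0.41).

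The spread within the groups was wide. Over the members the highest control exceeded the lowest by a median of 2.80-fold, against 1.36-fold over all genes. The AAV-Sox11 libraries spanned a median of 1.56-fold, against 1.21-fold. Of the 31 members, 26 spanned at least 2-fold among the controls and 7 among the AAV-Sox11 libraries. Part of the spread within groups is missing from the deposited values, mainly along AAV-Sox11 B, and its part in the narrower range with AAV-Sox11 was not tested.

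In 5 members control C was the lowest control. Fcrls, Msr1, Mrc1, Lyz2 and Gpr34, singled out after their values were seen, had their lowest control value there, with A highest in 4 of them and B highest for Mrc1. Mrc1, the mannose receptor CD206 of perivascular and other tissue macrophages, varied most, with values of 424, 888 and 32.8 in controls A, B and C and of 108, 270 and 83.5 with AAV-Sox11. The groups overlapped (difference on the log2 scale -0.78 ± 1.12, SE, adjusted p = 0.70). Without control C it was -2.18, and without control B 0.18. Msr1, a scavenger receptor of macrophages, had 188, 52.9 and 39.5 in the controls and 28.1, 24.9 and 18.1 with AAV-Sox11. Control A was far above the other 5 libraries, and the groups did not overlap (log2 fold change -1.61 ± 0.55, SE, adjusted p = 0.133). Fcrls, an Fc receptor-like scavenger receptor used to tell microglia from blood monocytes, had 266, 145 and 58.8 in the controls and 64.6, 77.9 and 52.3 with AAV-Sox11. Its log2 fold change was -1.03 ± 0.49 (SE, adjusted p = 0.251), and -1.60 without control C, where it passed at 0.0451. Lyz2, the lysozyme of macrophages and granulocytes, had 4732, 2329 and 1619 in the controls and 4416, 3898 and 2442 with AAV-Sox11 (log2 fold change 0.41 ± 0.39, SE). In each group A was its highest and C its lowest library. Lyz1 is a near-identical neighbour, and the sources used here do not say how reads shared by both were counted. Gpr34, a lysophospholipid receptor of microglia on the X chromosome, had 69.9, 40.2 and 28.9 and then 55.3, 56.1 and 43.2 (0.23 ± 0.33).

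Of the perivascular macrophage genes 3 of 4, and of the endothelial and pericyte genes 5 of 5, were also below the mean of controls A and B in control C. Stab1, a scavenger receptor, had 312, 286 and 134 in the controls and 139, 157 and 109 with AAV-Sox11. Lyve1, a hyaluronan receptor that lymphatic vessels share with these macrophages, had 506, 108 and 136 and then 93.8, 64.4 and 47.3. None of the 4 passed (0 higher and 0 lower, against 0.796% and 1.52% of all genes), and 2, Stab1 and Lyve1, had an unadjusted p under 0.05. Over this list the summed value was 327 to 912 in the controls and 206 to 303 with AAV-Sox11, and Cd163, Pf4, F13a1, Cbr2 and Cd209f were not analysed here. Rgs5, a pericyte gene, had 15450, 3265 and 2898 in the controls, with A far above B and C, and 5457 to 6137 with AAV-Sox11. Kdr, a receptor of endothelial cells, had 3484 in control A and 1421 to 1890 in the other 5 libraries. Their part in the values of Msr1, Mrc1 and Fcrls was not tested.

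**Figure D3:**
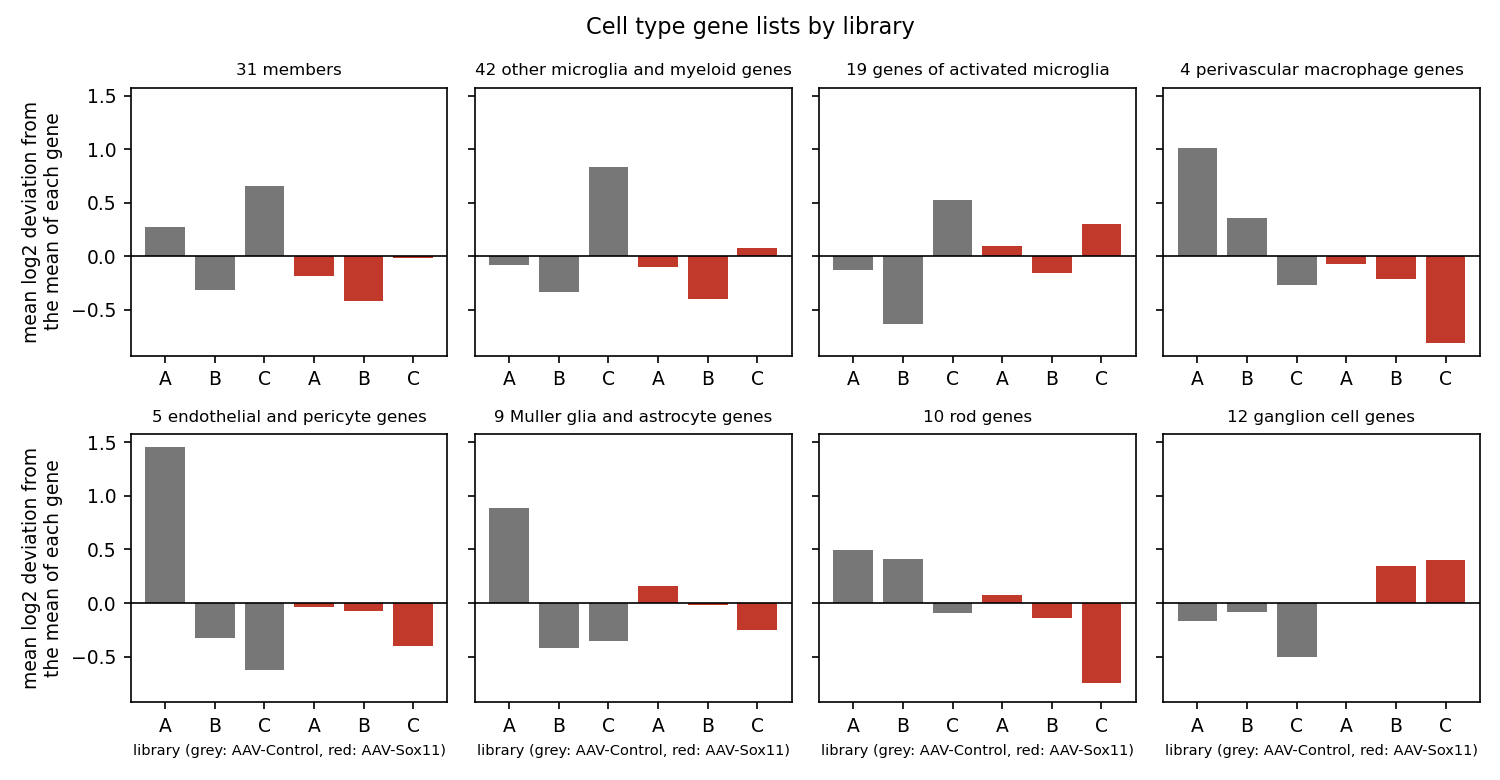
Bars give, for 8 gene lists, the mean over the genes of log2(value + 1) in a library minus the mean of each gene over the 6 libraries, for controls A, B and C (grey) and AAV-Sox11 A, B and C (red). The members (0.27, -0.31 and 0.66 in the controls) and the 42 other microglia and myeloid genes (-0.08, -0.33 and 0.83) peak in control C, while the perivascular (1.01, 0.36 and -0.27) and endothelial (1.46, -0.32 and -0.62) lists peak in control A.

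The promoters of 3 genes that were high in control C (C1qc, Ctss and Cd53) and of 2 that were low in it (Mrc1 and Fcrls) are printed. They are from RefSeq on GRCm38.p6, 250 bases before to 50 after the annotated start. The first 3 all hold the complete match described next, and do not stand for the other members high in control C. Capitals mark the letters GAGGAAG, the core of a PU.1 site, on either strand (CTTCCTC on the other), and the eighth letter where GAGGAAGT (ACTTCCTC) is complete.
C1qc promoter (chr4:136892865-136893164, minus strand): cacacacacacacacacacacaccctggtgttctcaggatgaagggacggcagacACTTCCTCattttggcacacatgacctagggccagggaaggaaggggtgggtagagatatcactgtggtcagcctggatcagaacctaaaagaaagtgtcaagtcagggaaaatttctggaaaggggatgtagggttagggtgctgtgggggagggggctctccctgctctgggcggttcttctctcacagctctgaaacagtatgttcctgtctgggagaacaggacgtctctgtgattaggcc
Ctss promoter (chr3:95526536-95526835, plus strand): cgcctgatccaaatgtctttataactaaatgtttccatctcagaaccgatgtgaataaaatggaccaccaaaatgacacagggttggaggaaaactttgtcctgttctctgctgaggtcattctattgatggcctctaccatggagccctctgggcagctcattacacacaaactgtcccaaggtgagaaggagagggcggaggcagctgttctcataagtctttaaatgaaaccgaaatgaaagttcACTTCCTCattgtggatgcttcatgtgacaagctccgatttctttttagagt
Cd53 promoter (chr3:106790100-106790399, minus strand): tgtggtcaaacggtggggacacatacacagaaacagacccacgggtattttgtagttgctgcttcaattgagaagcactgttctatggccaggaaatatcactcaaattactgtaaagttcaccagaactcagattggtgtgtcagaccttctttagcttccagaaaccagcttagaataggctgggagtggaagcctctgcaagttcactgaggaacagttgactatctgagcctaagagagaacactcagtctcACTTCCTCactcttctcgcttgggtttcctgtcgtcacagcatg
Mrc1 promoter (chr2:14229164-14229463, plus strand): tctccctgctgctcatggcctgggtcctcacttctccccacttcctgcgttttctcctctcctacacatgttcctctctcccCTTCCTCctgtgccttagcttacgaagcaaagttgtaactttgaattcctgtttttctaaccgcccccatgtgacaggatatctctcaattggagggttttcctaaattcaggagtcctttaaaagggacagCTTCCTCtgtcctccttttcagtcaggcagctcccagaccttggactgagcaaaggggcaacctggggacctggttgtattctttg
Fcrls promoter (chr3:87263475-87263774, minus strand): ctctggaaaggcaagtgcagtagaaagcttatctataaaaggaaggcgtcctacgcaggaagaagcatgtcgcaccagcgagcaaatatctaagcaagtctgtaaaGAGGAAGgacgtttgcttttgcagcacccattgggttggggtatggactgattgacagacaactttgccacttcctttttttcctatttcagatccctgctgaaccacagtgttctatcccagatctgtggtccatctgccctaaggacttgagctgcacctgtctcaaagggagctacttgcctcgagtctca
The complete 8 letters stood in C1qc, Ctss and Cd53, on the opposite strand and starting with the 7-letter core 194 bases before, 1 base before and 8 bases after the start, and in the promoters of Apbb1ip and Inpp5d. Promoters were found for 22 of the 31 members. The 8 letters occurred in 5 of these 22, against 3.69% of 27025 genes, and the 7 letters, which every 8-letter match contains, in 9 of 22, against 15.4%. Mrc1 held the 7 letters 168 and 36 bases before the start on the opposite strand, and Fcrls 144 bases before it on the gene's own strand. Laptm5 and Trem2, for which control C was the highest library, also held the 7 letters without the eighth. The printed promoters thus do not show that the complete match separates high from low genes. A match describes the letters in these windows and shows no binding.

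The genes of resting microglia had the lowest median difference of the larger roles, -0.77 over 6 measured genes, with 5 of them lower in all 3 pairs and 0 past the test. Tmem119, a membrane protein that marks microglia among macrophages (chr5:113793729-113800516 in GRCm38, minus strand, 2 exons), had 715, 724 and 1333 in controls A, B and C and 458, 432 and 637 with AAV-Sox11. Every AAV-Sox11 library lay below every control, and control C stood apart from A and B. The log2 fold change was -0.82 ± 0.26 (SE, adjusted p = 0.122), between -0.99 and -0.49 over the alternative fits. P2ry12, the receptor by which microglia sense ADP, had 59.2, 54.9 and 96.5 and then 48, 36.4 and 38.2, again without overlap (-0.73 ± 0.26, adjusted p = 0.146). Cx3cr1, the fractalkine receptor, had 271, 161 and 317 in the controls and 194, 144 and 162 with AAV-Sox11. Control B lay within the range of the AAV-Sox11 libraries there (-0.53 ± 0.26, adjusted p = 0.251). Siglech, a sialic acid-binding lectin of microglia, had 41.7, 43.1 and 117 and then 18.8, 19.7 and 46.3 (-1.17 ± 0.49, adjusted p = 0.199). Its only row is annotated as a transcript subject to nonsense-mediated decay, so its values do not cover the gene's other transcripts.

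**Figure D4:**
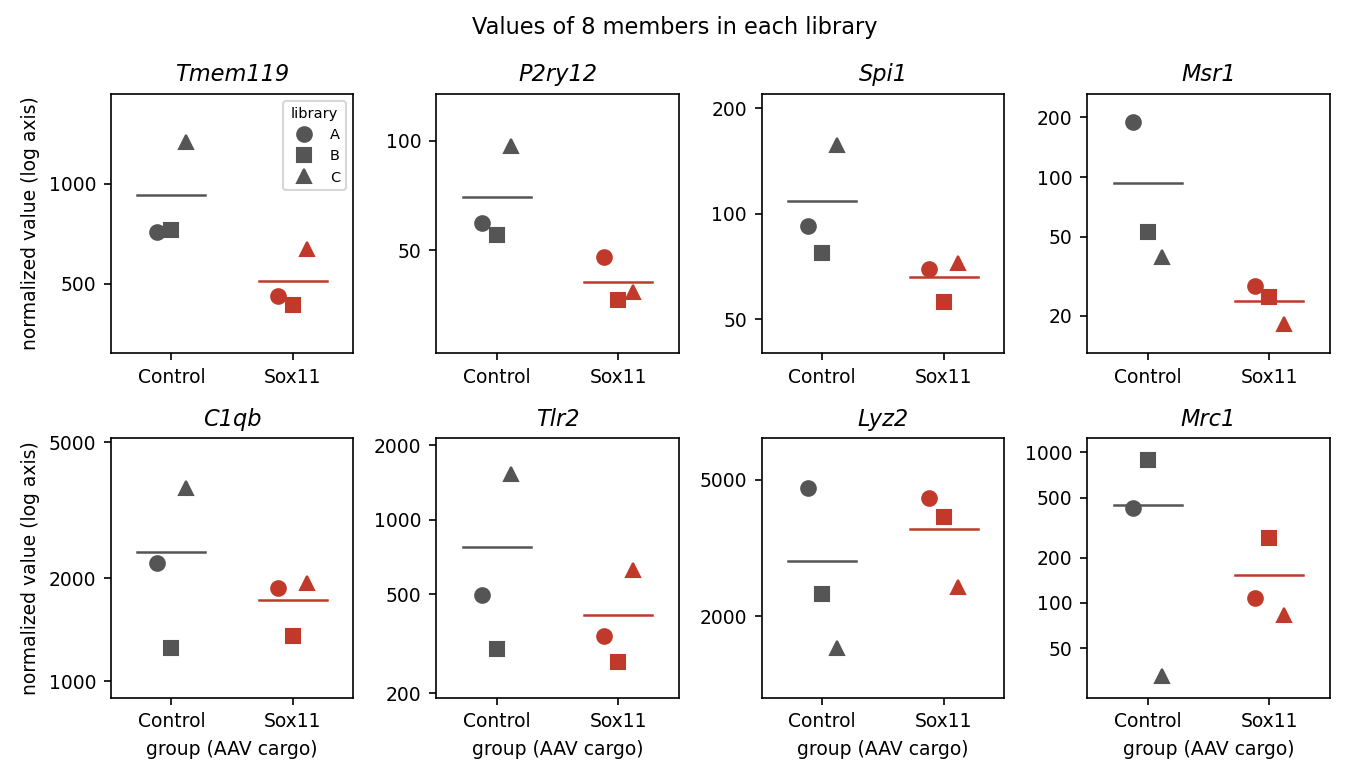
Normalized values of 8 members in each library on a log axis, with controls in grey and AAV-Sox11 in red, a symbol for each library letter and a line at the mean of the group. Tmem119, P2ry12, Spi1 and Msr1 do not overlap between the groups, while C1qb, Tlr2, Lyz2 and Mrc1 do, with control C highest for C1qb and Tlr2 and lowest for Lyz2 and Mrc1.

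Of the transcription factors, Spi1, which encodes PU.1, had 92.2, 77.5 and 157 in the controls and 69.9, 56.1 and 72.4 with AAV-Sox11. The groups did not overlap (difference on the log2 scale -0.65 ± 0.28, SE, adjusted p = 0.20). Sall1, a zinc-finger factor that keeps microglia in their resting state, had 915, 638 and 2596 and then 655, 522 and 1075 (-0.68 ± 0.50, adjusted p = 0.436). Control C stood far above the other 5 libraries, and without it the log2 fold change of Sall1 was -0.09, in a fit that kept AAV-Sox11 C. Within pairs A, B and C Sall1 was lower each time (log2 differences -0.48, -0.29 and -1.27), with an adjusted p of 0.0878 with the block.

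The C1q chains, which together form the recognition part of complement component 1, showed the order of the libraries in each of the 3 genes. They lie side by side on the minus strand of chromosome 4 in GRCm38, with C1qb at 136880129 to 136886187, C1qc at 136889804 to 136893065 and C1qa at 136895917 to 136898803. C1qb had 2225, 1254 and 3672 in the controls and 1881, 1362 and 1934 with AAV-Sox11, and C1qc 1827, 772 and 3014 and then 1359, 1014 and 1799. C1qa had 109, 66.7 and 207 and then 61.5, 59.2 and 125. Control C was the highest and control B the lowest control for each chain, and the groups overlapped (-0.35 ± 0.35 for C1qb, -0.26 ± 0.46 for C1qc and -0.57 ± 0.45 for C1qa on the log2 scale, adjusted p = 0.576, 0.759 and 0.464). Per kilobase of transcript, C1qb was 18.8 times and C1qc 13.5 times the level of C1qa. These are ratios of RNA values and do not measure the protein, which contains the chains in equal number. That ratio of C1qb to C1qa was 14.8 to 29.2 over the 6 libraries, while that of C1qb to C1qc was 1.189 to 1.797.

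Adaptors and receptors that signal through ITAM motifs had a median log2 fold change of -0.38 over 4 measured genes, and 0 passed. Tyrobp, the adaptor DAP12 that carries the signal of Trem2, had 321, 196 and 509 in the controls and 281, 223 and 323 with AAV-Sox11 (-0.22 ± 0.33, SE, adjusted p = 0.709). Trem2, a lipid receptor of microglia, had 124, 69.6 and 171 and then 62.6, 63.4 and 121 (-0.54 ± 0.38, adjusted p = 0.418). The values of Trem2 rest on a row annotated as a retained-intron transcript. Fcer1g, the common gamma chain of Fc receptors, had 642, 277 and 1113 and then 636, 421 and 654 (-0.06 ± 0.46). Inpp5d, the inositol phosphatase SHIP1 that restrains this signalling, had 114, 101 and 196 and then 57.4, 64.4 and 128. It was lower in all 3 pairs (-0.74 ± 0.36, adjusted p = 0.257, and 0.0558 with the block). The 3 rows summed for Inpp5d are annotated as a retained-intron transcript, a processed transcript and a protein-coding transcript of 344 bases. Control C was the highest library for each of these 4 genes.

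Lysosomal and scavenger genes did not share a direction. Cd68, a lysosomal membrane protein of phagocytes, had 190, 85.3 and 173 in the controls and 214, 162 and 179 with AAV-Sox11. Its log2 fold change was 0.38 ± 0.30 (SE, adjusted p = 0.467), and it was above 0 in each alternative fit. Ctss, the protease cathepsin S, had 140, 82.4 and 345 and then 198, 108 and 141, with -0.13 ± 0.49 over 6 libraries and 0.42 without control C. Laptm5, a lysosomal membrane protein of blood cells, had 419, 227 and 771 and then 422, 284 and 404, with -0.20 ± 0.40 and 0.24 without control C. Both estimates turned sign when control C was left out.

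Toll-like receptors and their co-receptors had a median of -0.47 over 4 measured genes, all with negative estimates and 0 past the test. Tlr2, a receptor for bacterial lipoproteins, had 499, 301 and 1525 in the controls and 341, 268 and 629 with AAV-Sox11 (-0.66 ± 0.58, SE, adjusted p = 0.51). Control C was the highest library, and without it the estimate was close to 0, in a fit that kept its same-day partner AAV-Sox11 C. Within pairs A, B and C Tlr2 was lower each time (log2 differences -0.55, -0.17 and -1.275), with an adjusted p of 0.11 with the block. Tlr4, the receptor for lipopolysaccharide, had 174, 149 and 249 and then 92.8, 104 and 176 (-0.64 ± 0.29, adjusted p = 0.222). It was lower in all 3 pairs, with an adjusted p of 0.0637 with the block. Cd14, which hands lipopolysaccharide to Tlr4, had 255, 114 and 315 and then 167, 136 and 211 (-0.31 ± 0.37). Ly86, the partner MD-1 of the receptor Cd180, had 1841, 916 and 3915 and then 1708, 1129 and 1859 (-0.29 ± 0.48).

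Both subunits of the phagocyte NADPH oxidase that were measured overlapped between the groups. Cybb, the catalytic subunit on the X chromosome, had 762, 491 and 2100 in the controls and 804, 695 and 1575 with AAV-Sox11 (log2 fold change 0.05 ± 0.53, SE, adjusted p = 0.963). Cyba, its stabilizing partner, had 57.3, 36.3 and 127 and then 84.4, 51.9 and 68.4 (0.06 ± 0.44). With every library scaled to the same total both estimates were -0.01. In both groups C was the highest library for Cybb.

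Among leukocyte surface and adhesion genes, 0 of 4 measured passed, and the median was -0.23. Ptprc, the common leukocyte antigen CD45, had 65, 105 and 172 in the controls and 121, 80 and 68.4 with AAV-Sox11 (-0.27 ± 0.37, SE). Its only row is a retained-intron transcript. T cells also express Ptprc, Cd53 and Selplg. Of the 5 measured T cell genes 4 had a positive estimate and 1, Cd247, a negative one, with a median of 1.28. Cd4 had 1.28 ± 0.47 (SE, adjusted p = 0.154) and Cd5 0.38 ± 0.55 (adjusted p = 0.705), both with overlap between the groups. Zap70, a kinase of T cell receptor signalling, had 30.1, 75.5 and 35.7 in the controls and 202, 272 and 210 with AAV-Sox11, and Grap2, an adaptor of the same pathway, 14.6, 38.2 and 31.8 and then 166, 186 and 171. Cd247, the receptor's zeta chain, had 77.7, 56.9 and 58.9 and then 50.04, 47.8 and 47.3, without overlap in the opposite direction (-0.39 ± 0.19, adjusted p = 0.251). The part of T cells in the leukocyte genes was not tested. Cd53, a tetraspanin of leukocytes, had 1150, 896 and 2046 and then 1191, 987 and 1385 (-0.13 ± 0.29). Selplg, the selectin ligand PSGL-1, had 543, 613 and 1198 and then 610, 557 and 801 (-0.18 ± 0.29). Apbb1ip, the integrin activator RIAM, had 411, 235 and 627 and then 311, 250 and 388 (-0.33 ± 0.34), summed over 3 rows. Control C was the highest library for each of the 4 genes, and without it the log2 fold changes were 0.08, 0.21, 0.17 and 0.00.

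Genes of the ligands, receptors and signalling partners of microglia were read from 4 further lists, 98 measured genes of 127. Of these, 1 rose and 1 fell at an adjusted p under 0.05, against 0.796% and 1.52% of all genes. Cd47, the signal on healthy cells that restrains phagocytes through Sirpa, had 6728, 8014 and 6401 in the controls and 10060, 10770 and 9675 with AAV-Sox11. All AAV-Sox11 libraries lay above all controls (log2 fold change 0.53 ± 0.10, SE, adjusted p = 0.0467). Gas6, a bridging ligand of the phagocytic receptors Mertk and Axl, had 7676, 7698 and 7344 and then 4898, 4954 and 4935 (-0.62 ± 0.07, adjusted p = 0.0153). Neither gene is particular to microglia, and neither followed the order of the members, with control C 0.20 and 0.07 below the mean of A and B on the log2 scale. Cd47 missed the threshold without control A (adjusted p = 0.0983, log2 fold change 0.50) or control C (0.0638, 0.47), and with upper-quartile scaling (0.0586, 0.49). Both genes missed it in 5 fits in which 0% of all genes passed, while their folds stayed close to those above. These fits left out AAV-Sox11 A, B or C (log2 fold changes 0.54, 0.49 and 0.57 for Cd47 and -0.61, -0.62 and -0.62 for Gas6), or had the missing direction (0.53 and -0.62) or the sex index (0.43 and -0.66) as a covariate. Adjusted p was 0.123 to 0.246 for Cd47 and 0.0591 to 0.112 for Gas6 over these 5 fits.

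Sirpa, the receptor for Cd47, had 218, 210 and 272 in the controls and 197, 165 and 161 with AAV-Sox11 (-0.41 ± 0.15, SE, adjusted p = 0.152). Cx3cl1, the neuronal ligand of Cx3cr1, had 1364 ± 142 and 1447 ± 106 (SD, n = 3), with a log2 fold change of 0.09 ± 0.10 (SE), and Cd200, a neuronal signal that quiets microglia, 93.4 ± 22.5 and 126 ± 19.2 (0.45 ± 0.22). C3, the central complement component, had 1427, 261 and 1853 and then 1106, 566 and 933, and Itgb2, a chain of complement receptor 3, 159, 129 and 323 and then 182, 163 and 266. Both overlapped between the groups and were highest in control C. Csf1, Il34, Cd200r1 and Itgam were not analysed here.

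In the list of activated microglia, 0 of 19 passed, and the median log2 fold change was 0.36, with 15 positive. Over all genes the median was 0.03, with 8315 of 15450 positive. Whether the values of this list come from microglia was not tested. Over the list of 20 Toll-like receptor and NF-kB genes the median was -0.13 and 0 passed, and over the 42 other microglia and myeloid genes -0.25 and 0. With the replicate block the 98 genes gave 5 higher and 4 lower, where 2.09% and 2.68% of all genes were. Those besides Cd47 and Gas6 were named after their values were seen. Ccl3, a chemokine that activated microglia release, had 424, 228 and 1293 in the controls and 143, 122 and 354 with AAV-Sox11, and Ccl4, its neighbour in the same family, 90.3, 90.2 and 314 and then 38.6, 40.5 and 107. Both were lower in every pair and in that fit (adjusted p = 0.0285 for both, log2 fold changes -1.44 and -1.30), as were Cd33 and Gas6, while without the block their adjusted p was 0.223 and 0.217. Higher in it were Cd47, Ctsl, Ly96, Maf and Rgs2. Without control C 6 were higher, among them the lysosomal proteases Ctsb and Ctsl, and 1 lower, where 1.197% and 1.359% of all genes were.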

How the data were processed

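The libraries held polyadenylated RNA of sorted cells, amplified from low input. Base calling used CASAVA 1.8.2, and edgeR and mm10 are named, per the submitters' processing notes; the sources used here name no aligner. The deposited whole-number columns are treated as a score, because 1 of 5 directions across libraries carries no spread beyond rounding (SD 9.481e-05, where read counting alone gives 0.01702), so they are not raw counts. That direction lies mostly within AAV-Sox11 (57.7% of its squared weight on library B), and its loss can make p-values too small. The deposited normalized signal columns equal these times 1 factor per library. The authors' deposited table also gives log2 fold changes and p-values per transcript row, with false discovery rates.

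The normalized values were summed per gene, and log2(value + 1) was tested with limma 3.58.1 (R 4.3.3, intensity trend, two-sided, Benjamini-Hochberg over 15450 genes). No minimum removed a gene. Rows without a gene name were left out (0.422% to 0.517% of each library). Lengths and coordinates are from GENCODE M21 and promoters from RefSeq. The members and gene lists were chosen with earlier results of these data known. Values are given for members that pass, the extremes of each role and defining markers; from other lists, for genes that pass, fixed ligands and receptors and the most abundant genes of each cell type. Libraries were pooled from different animals. Same-lettered libraries were prepared on 1 day per the series description. Their deviations from the group means correlated at 0.0025 (A), 0.793 (B) and 0.236 (C). The alternatives were other scalings, pseudocounts, filters, covariates, the replicate block and leaving out each library. The procedure was tested on simulated data. The result of 1 cell type list is not reported here.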

Additional observations from a re-analysis of the deposited data

How the results depend on the processing

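Of 494 values of single members over 16 alternative settings, 451 kept their direction and their side of the threshold, 40 changed sign, 3 newly passed and 0 were lost. Part of this agreement was fixed in advance. The replicate block, robust variance and the minimum mean value of 50 leave the log2 fold changes as they were. Where 0% of all genes passed, no member passed either. With the replicate block, 2 members were lower in place of 0, and leaving out 1 library at a time gave 0 to 1. The median over the members was 0.13 with the sex index as a covariate. In that fit the log2 fold changes that turned sign were 0.13 (Apbb1ip), 0.30 (C1qb), 0.37 (C1qc), 0.081 (Cd14), 0.37 (Cd53), 1.03 (Ctss), 0.75 (Fcer1g), -0.11 (Gpr34), 0.59 (Laptm5), 0.59 (Ly86), 0.64 (Ptprc), 0.059 (Sall1), 0.26 (Selplg), 0.13 (Tlr2) and 0.30 (Tyrobp). Scaling to the library total gave -0.0063 for Cyba and -0.0102 for Cybb. Leaving out 1 library at a time gave -0.70 to 0.0021 for Apbb1ip, -0.75 to 0.029 for C1qb, -0.79 to 0.19 for C1qc, -0.38 to 0.21 for Cd53, -0.60 to 0.42 for Ctss, -0.35 to 0.54 for Cyba, -0.40 to 0.65 for Cybb, -0.60 to 0.41 for Fcer1g, -0.051 to 0.57 for Gpr34, -0.64 to 0.24 for Laptm5, -0.81 to 0.24 for Ly86, -2.18 to 0.18 for Mrc1, -0.62 to 0.076 for Ptprc, -0.40 to 0.17 for Selplg and -0.57 to 0.12 for Tyrobp. Of the 98 genes of the 4 further lists, 1 was higher and 1 lower. The number higher was 2 with a mean value of at least 50, 4 with the most abundant row, 3 with robust variance, 5 with the replicate block, and 0 with the missing direction, the sex index or upper-quartile scaling. The number lower was 4 with the block and 0 with the missing direction or the sex index. In both of those fits 0% of all genes passed, and Gas6 had log2 fold changes of -0.62 and -0.66. Leaving out 1 library at a time gave 0 to 6 higher and 0 to 2 lower. The cause of these changes was not tested. With 3 libraries a group, their number and the spread among the controls limit what can be detected, and the depth of the reads is not known from adjusted values.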
